A study of Bos taurus with 7 samples.

Results

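The genes described here encode the cytochrome P450 enzymes and the other large families of enzymes that oxidise, reduce and conjugate foreign and endogenous small molecules, measured in the rumen epithelium of Holstein calves. Members were all probes for genes, control probes aside, whose name on the array begins as a cytochrome P450 (CYP), UDP-glycosyltransferase (UGT), sulfotransferase (SULT), aldehyde dehydrogenase (ALDH), aldo-keto reductase (AKR) or flavin monooxygenase (FMO), together with 20ALPHA-HSD, a bovine aldo-keto reductase, and without the cholesterol synthesis enzyme CYP51A1. The rule used names alone and no measured value. It found 88 probes, with 86 gene names, of the 15008 probes on the array, and 64 of them were bright enough to be tested. RefSeq accessions named 70 of the 88 probes and replaced 8 symbols by current ones, and the other names are those of the array.

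The study asked how forage and calf starter affect ruminal pH and gene expression of the rumen lining around weaning. The HAY group was 3 calves given forage (calves 9, 10 and 13), and the CON group was 4 calves given none (calves 8, 11, 12 and 14). The description of the design puts the sampling 3 weeks after weaning, and age, sex and the other feed of each calf are not given in the sources used here. RNA of each calf was labelled with Cy3 and hybridised to 1 array, so each value below is from 1 calf and the number of calves limits the precision. Values are log2 signal relative to the 75th percentile of the same array, so that 0 is the brightness of that percentile and a difference of 1 between groups is 2-fold. They describe a probe across calves, and the value of a probe is not compared with that of another probe.

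In the classical scheme of detoxification, phase I enzymes put a reactive group on a lipophilic molecule or unmask it. P450 enzymes do this with oxygen and electrons from NADPH, flavin monooxygenases oxidise nitrogen and sulfur, and aldehyde dehydrogenases and aldo-keto reductases turn reactive carbonyls into acids and alcohols. Phase II enzymes then attach a water-soluble group: UDP-glycosyltransferases add glucuronic acid, and sulfotransferases add sulfate. Many members have endogenous substrates too, such as retinoic acid, bile acids, steroid hormones and fatty acids, and the rumen wall is the first absorbing surface that plant and microbial compounds meet.

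The probes are 60 bases long, and some of the families are so alike that the probe decides what was measured. The longest run of bases that any pair of member probes shared was 11. Of the member probes, 10 lie in pieces over a stretch of genome longer than the probe. The bases below are from probes that the results turn on, read 5′ to 3′ in lower case without marked bases. They are shown in full for probes in pieces and as the first 30 bases for the others, since whether those lie in coding or untranslated sequence is not known here.
CYP1A1: gcttaagagcagcttattgagagccatgaa
CYP1A2: accttgtgacaaatcctaagatacagagaa
CYP3A28: accccagttagtactatctactcctcctga
CYP3A74: gcttgatttactttgtggtaaaactcagaa
CYP3A76: ttttctgaaggttgtgctcagagatgagac
CYP4F2: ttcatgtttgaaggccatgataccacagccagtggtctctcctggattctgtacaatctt
ALDH1L2: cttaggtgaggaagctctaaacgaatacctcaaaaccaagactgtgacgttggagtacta
UGT1A1: cttgtcccaaacagatctgaatttgacaga
FMO4: cctggggggcacctatactgcttgcttcct
SULT1B1: aagcgagatgttataactgctaaagttcca

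On the bosTau6 (UMD 3.1) assembly that the scanner files name, the CYP1A1 probe lies at chr21:34346255-34346314 on the plus strand and the CYP1A2 probe at chr21:34317714-34317773 on the minus strand. The array describes the latter with a partial CYP1A1 coding record, so it is called here the probe named CYP1A2. The 3 CYP3A probes are 3 different genes of chromosome 25, at chr25:37044554-37044613 (plus), chr25:37125929-37125988 (minus) and chr25:37189888-37189947 (minus). The UGT1A1 probe lies at chr3:114031263-114031322 on the plus strand. Enzymes of the UGT1A locus are known to share their last exons, and whether the UGT1A1 and UGT1A6 probes read more than the enzyme they are named for was not tested. The remaining probes shown are at chr7:8561852-8562076 (CYP4F2, plus), chr5:68883871-68886780 (ALDH1L2, minus), chr16:39759150-39759209 (FMO4, plus) and chr6:86942290-86942349 (SULT1B1, minus).

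No detoxifying enzyme differed between HAY and CON after adjustment over all genes tested. The lowest adjusted p among the 64 members was that of CYP1A1 (limma, Benjamini-Hochberg adjusted p = 0.219), and 1 of the 12570 genes tested, 0.00796%, passed. At an unadjusted p under 0.05 there were 11 members, 17.2% of 64, where 13.9% of all genes tested passed. Of the 11 members, 9 were higher in HAY, beside 6.78% of all genes: CYP1A1, CYP3A28, CYP4F2, CYP46A1, UGT1A1, ALDH2, FMO4, SULT1B1 and SULT1C2. The other 2 were lower, beside 7.17% of all genes: CYP27A1 and ALDH1L2. CYP1A1 and ALDH1L2 differed by at least 2-fold as well, and 4.69% of all genes did so; for ALDH1L2 this rests on 2 HAY arrays that did not show it well above background. With normexp background correction, 11 members were higher and 2 lower at an unadjusted p under 0.05, beside 718 and 1007 of the 12570 genes. CYP26A1, ALDH4A1 and UGT2B10 were among those gained, and CYP3A28, FMO4, SULT1B1, SULT1C2 and ALDH1L2 were lost. The normexp differences of SULT1C2, detected on 1 CON array, and ALDH1L2 were 0.02 and -0.57.

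The counts depended on single calves, and so did those over all genes. The count of 9 went to 3 without HAY calf 10, and to 4 without HAY calf 13, CON calf 8 or CON calf 14. Over all genes, 852 higher became 377, 487, 520 and 891 without these calves, in that order. The count of 2 went to 7 without HAY calf 9 and to 5 without CON calf 14. It went to 1 without HAY calf 13 or CON calf 12, and to 0 without HAY calf 10, CON calf 8 or CON calf 11. Over all genes, 901 lower became 1195, 1185, 495, 700, 610, 683 and 705 without these calves, in that order. The count at 2-fold went to 6 without HAY calf 9, to 4 without CON calf 12 or 14, and to 1 without HAY calf 10. With calves left out, it was not taken over all genes. With each array centred on its median, 15 members were higher and 2 lower at that p, where the split over all genes moved from 852 higher and 901 lower to 1237 and 774.

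The groups did not overlap for 7 members, 10.9% of 64, beside 11.8% of all genes tested. All 7 were higher in HAY, where 6.53% of all genes were higher without overlap: CYP1A1, CYP26A1, UGT1A1, ALDH1A2, ALDH4A1, FMO4 and SULT1B1. The count was 25 without HAY calf 9, 16 without HAY calf 13 or CON calf 14, 13 without CON calf 11 and 12 without CON calf 12. Smaller groups overlap less easily for any gene. The share over all genes was not taken with a calf left out, so these counts cannot be set beside 11.8%. Without regard to a test, 44 members had the higher mean in HAY and 20 the lower, so that 68.75% were higher, beside 54.5% of all genes. The median log2 difference of the members was 0.21, beside 0.03 over all genes.

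**Figure D1:**
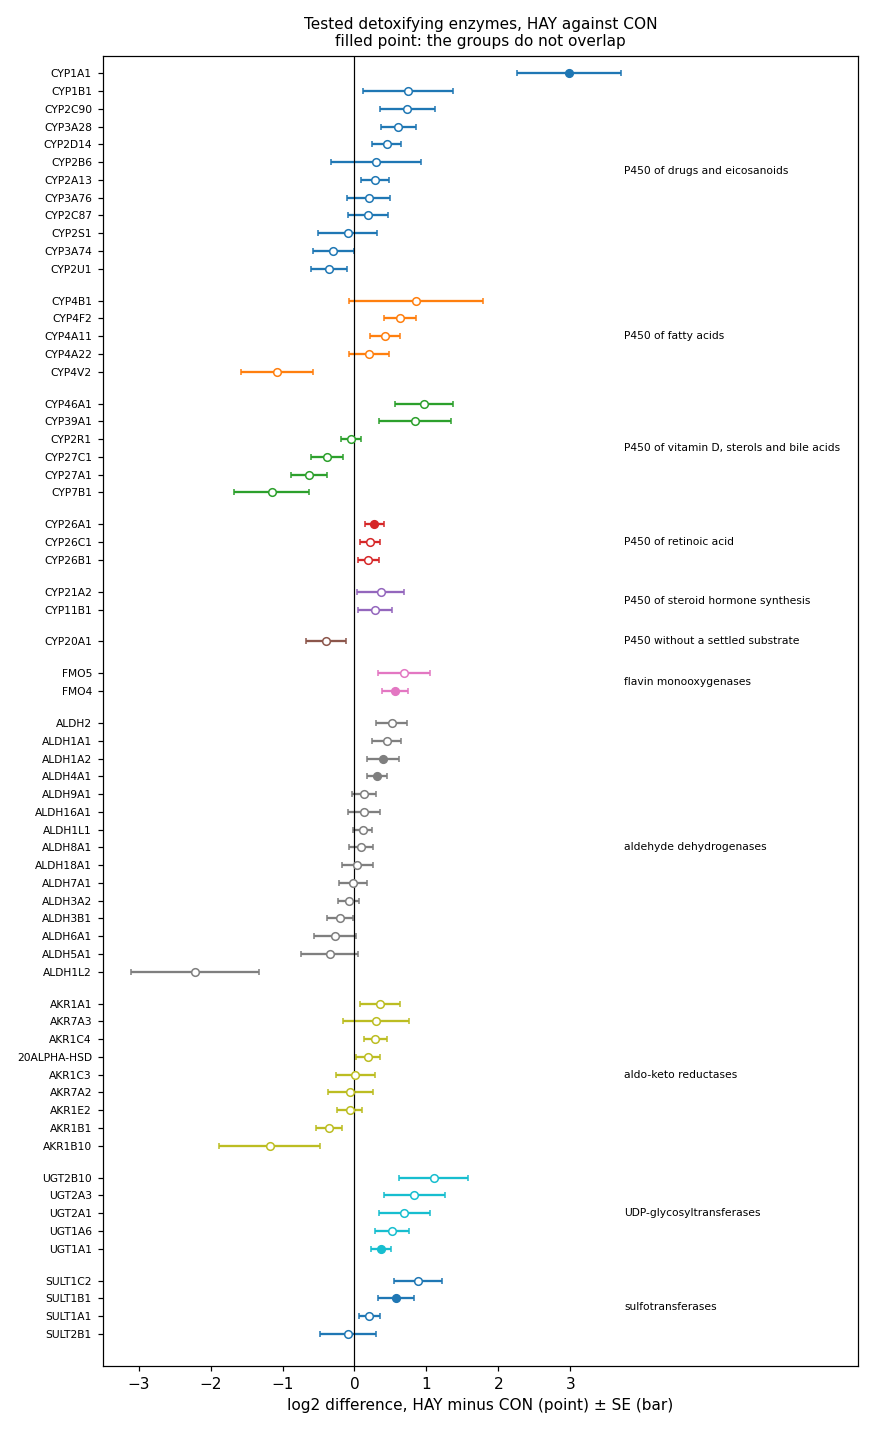
Difference between HAY and CON for the 64 tested detoxifying enzymes, by role. The horizontal axis is the log2 difference, HAY minus CON, points are limma estimates with their standard errors as bars (n = 3 and 4 calves), and filled points mark the 7 members whose groups do not overlap; CYP1A1 lies farthest to the right at 2.98 and ALDH1L2, not well above background on 2 of its 3 HAY arrays, farthest to the left at -2.22.

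The median SD of the members over the 7 calves was 0.40, beside 0.29 for all genes tested. The members with the largest SD were CYP1A1, ALDH1L2, CYP4B1, AKR1B10 and CYP1B1. The lowest of the 7 calves was CON calf 8 or CON calf 14 for 36 of the 64 members (56.25%; 40.0% of all genes), and the highest was a HAY calf for 40 (62.5%; 45.1% of all genes).

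Between 81.5% and 84.6% of the spots were well above background on each array. All arrays lay on 1 slide, HAY in row 1 and CON in row 2, so that the row of an array and the feed of its calf cannot be told apart. Squamous epithelium was present by most of its markers. All 13 on the array were tested, 9 with a higher and 4 with a lower mean in HAY. Their summed signal was 401 to 463 times the 75th percentile in HAY and 322.5 to 400.1 in CON. KRT4 went the other way: it was well above background on all 4 CON arrays and on no HAY array. Its groups did not overlap, with a log2 difference of -2.32 (SE 0.37, limma adjusted p = 0.163), or -0.68 with normexp. KRT4 passed the detection filter through the CON arrays alone, so the size of its difference is uncertain. Markers of supporting tissue had lower means in HAY, none past adjustment. The 9 fibroblast markers, 5 of them lower at an unadjusted p under 0.05, summed to 13.2 to 58.8 in HAY and 36.6 to 206.5 in CON. Those of smooth muscle (6 of 8 at that p) summed to 11.7 to 26.8 and 28.5 to 63.9, and those of endothelium (3 of 8) to 1.195 to 3.91 and 2.86 to 4.92. Those of macrophages (6 of 7 at that p, with CD68 higher in HAY) summed to 5.43 to 6.24 and 8.85 to 14.1. In bulk tissue, fewer cells of a type and less RNA per cell cannot be told apart, and the part of these shifts in the differences below was not tested. Of 5 hepatocyte markers, ALB was well above background on no array, FGB and SERPINA1 on 1 array each, and TTR and APOA1 on all 7; those tested summed to 0.186 to 1.97 in HAY and 0.172 to 1.11 in CON.

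Of the P450 enzymes of drugs and eicosanoids, 12 of 15 probes were tested, 9 with a higher and 3 with a lower mean in HAY. CYP1A1 is the classical target of the aryl hydrocarbon receptor and oxidises planar aromatic compounds. Its values in HAY calves 9, 10 and 13 were 5.75, 6.59 and 4.80, and in CON calves 8, 11, 12 and 14 they were 1.45, 3.61, 4.07 and 1.79; the calves stand in this order wherever values follow. Every HAY calf was above every CON calf, and within CON, calves 8 and 14 lay below calves 11 and 12. The means were 5.71 ± 0.89 (SD, n = 3) and 2.73 ± 1.30 (SD, n = 4), a log2 difference of 2.98 (SE 0.73) or 7.90-fold. This was the largest log2 difference of any member. Over the 16 alternative settings it lay between 2.54 and 3.44, at an unadjusted p under 0.05 in all 16, and its lowest adjusted p was 0.0785.

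CYP1B1, a related enzyme that acts on estrogens and aromatic compounds, had values of -1.83, -0.37 and -2.61 in HAY and -3.19, -1.42, -1.79 and -3.0 in CON. HAY calf 10 was highest, but the other HAY calves lay below CON calves 11 and 12, and the groups overlapped. The log2 difference was 0.75 (SE 0.63; limma adjusted p = 0.632). Leaving out HAY calf 10 gave 0.13, leaving out CON calf 8 gave 0.47, and leaving out HAY calf 13 gave 1.25. CON calves 8 and 14 were the lowest for both enzymes. The probe named CYP1A2 was detected well above background on the array of HAY calf 10 and on no other array, so no fold is given.

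Receptors and partners that act on these genes were measured by 12 probes, and 11 were tested, 6 with a higher and 5 with a lower mean in HAY. Of these 1, TIPARP, had an unadjusted p under 0.05, beside 13.9% of all genes, and NR1I2, the pregnane X receptor, was not well above background on any array. AHR, the aryl hydrocarbon receptor, had values of -3.70, -4.02 and -4.31 in HAY and -3.88, -3.75, -3.80 and -4.25 in CON, a log2 difference of -0.09 (SE 0.20). AHRR, the repressor of that receptor, was added after its values were seen. It had the lower mean in HAY, with overlapping groups and a difference of -0.17 (SE 0.23), or -0.17 with normexp. TIPARP, a mono-ADP-ribosyltransferase that the receptor switches on and that represses it in turn, had -0.42, 0.08 and -0.11 in HAY and -0.71, -0.49, -0.70 and -0.75 in CON. Its groups did not overlap, with a difference of 0.51 (SE 0.16; limma adjusted p = 0.271).

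NQO1, a quinone reductase that belongs to the same receptor's set of targets and to those of NRF2, was higher in every HAY calf than in any CON calf. Its values were 3.61, 3.06 and 3.1 in HAY and 1.76, 0.69, 2.35 and 2.65 in CON, a log2 difference of 1.39 (SE 0.45; limma adjusted p = 0.275). The order of the calves was not that of CYP1A1: CON calf 11, which was above CON calves 8 and 14 for CYP1A1, was the lowest of all for NQO1.

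**Figure D2:**
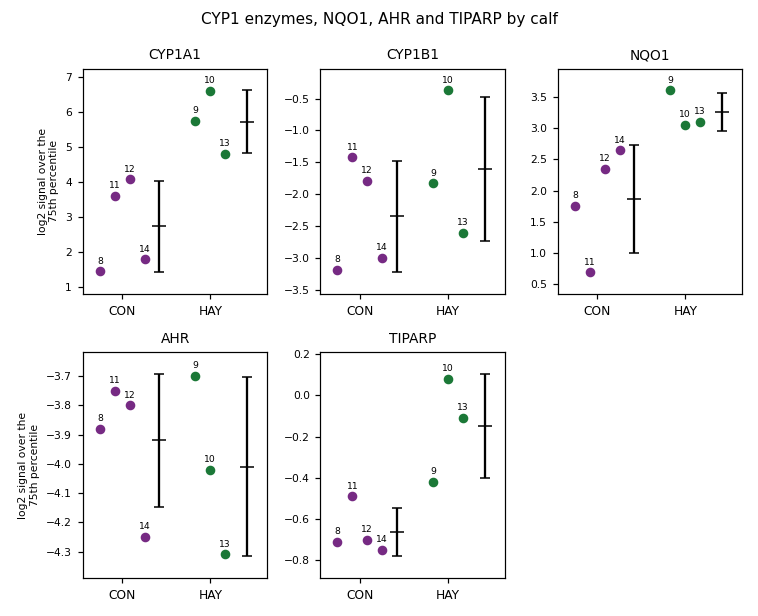
CYP1A1, CYP1B1, NQO1, AHR and TIPARP in each calf. The vertical axis is log2 signal over the 75th percentile of the array, with a scale of its own in each panel, points are calves with their numbers, and bars are the mean ± SD (n = 4 CON, n = 3 HAY); the groups do not overlap for CYP1A1, NQO1 and TIPARP and overlap for CYP1B1 and AHR.

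CYP3A enzymes carry much of drug and steroid oxidation, and the 3 probes for them gave different directions. The CYP3A28 probe had values of -5.43, -5.38 and -5.60 in HAY and -6.66, -6.07, -6.01 and -5.59 in CON. CON calf 14 reached the lowest HAY calf, and the difference was 0.61 (SE 0.24; limma adjusted p = 0.335); it was 0.13 with normexp background correction. The CYP3A76 probe had a log2 difference of 0.20 (SE 0.30) and the CYP3A74 probe a log2 difference of -0.29 (SE 0.29), both with CON calf 14 as the highest of all calves.

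The CYP2 members, enzymes of arachidonic acid and drug oxidation, did not reach an unadjusted p of 0.05. CYP2C90 ran from 4.32 to 4.96 in HAY and from 3.36 to 4.83 in CON (log2 difference 0.74, SE 0.38), and CYP2D14 from 3.30 to 3.74 and from 2.82 to 3.50 (0.45, SE 0.20). CYP2B6 (0.30, SE 0.62), CYP2A13 (0.29, SE 0.19) and CYP2C87 (0.19, SE 0.28) also had the higher mean in HAY. CYP2U1 (-0.36, SE 0.25) and CYP2S1 (-0.09, SE 0.41) had the lower. CYP2S1 was well above background on 3 of the 7 arrays. For CYP2C90, CYP2D14 and CYP2B6 the lowest calf of all was CON calf 8 or 14.

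The P450 enzymes of the CYP4 family hydroxylate the end of fatty acid and eicosanoid chains, and all 5 probes were tested. CYP4F2, known for the inactivation of leukotriene B and of vitamins E and K, had values of -3.75, -3.07 and -2.98 in HAY and -4.18, -3.70, -3.88 and -3.85 in CON. HAY calves 10 and 13 stood above all CON calves and HAY calf 9 lay among them. The log2 difference was 0.64 (SE 0.22; limma adjusted p = 0.297), and 0.41 with normexp.

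CYP4A11 (0.43, SE 0.21) and CYP4A22 (0.20, SE 0.27) had small differences in the same direction, although that of CYP4A22 turned to -0.02 with normexp. CYP4B1, which hydroxylates short chains and activates plant furans, was the least even of the family: -3.72, -7.15 and -5.27 in HAY and -5.29, -5.17, -7.93 and -6.56 in CON. HAY calf 9 was the highest and CON calf 12 the lowest, where the probe was not well above background on 1 CON array. Its difference of 0.86 (SE 0.93) was 0.27 with normexp; leaving out HAY calf 9 gave 0.03, CON calf 12 gave 0.29, and HAY calf 10 gave 1.74.

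CYP4V2, a fatty acid hydroxylase whose loss causes a retinal dystrophy in humans, went the other way. Its values were -0.90, -2.05 and -2.74 in HAY and -0.45, -0.40, -0.64 and -1.81 in CON. HAY calves 10 and 13 were the lowest, CON calf 14 came next, and the groups overlapped, with a log2 difference of -1.07 (SE 0.50; limma adjusted p = 0.385), or -0.65 without HAY calf 13.

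Of the P450 enzymes of vitamin D, sterols and bile acids, 6 of 9 were tested, 2 with a higher and 4 with a lower mean in HAY. With median centring or quantile normalization, and without HAY calf 13 or CON calf 14, it was 3 and 3, since CYP2R1, a vitamin D hydroxylase, moved across 0 (log2 difference -0.05, SE 0.14). CYP27A1 is the mitochondrial enzyme that opens the acidic route of bile acid synthesis and also makes oxysterols. Its values were -0.27, -0.82 and -0.96 in HAY and 0.33, 0.08, -0.08 and -0.54 in CON, and HAY calf 9 lay above CON calf 14. The difference was -0.63 (SE 0.25; limma adjusted p = 0.335).

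CYP7B1, the oxysterol hydroxylase that follows CYP27A1 in that route, had -5.15, -6.37 and -7.12 in HAY and -4.44, -4.90, -4.87 and -6.04 in CON. It showed the same low pair of HAY calves, 10 and 13, with CON calf 14 next. Its log2 difference was -1.15 (SE 0.52; limma adjusted p = 0.374), and -0.51 with normexp or -0.70 without HAY calf 13. CYP27C1, a retinoid desaturase, had a difference of -0.38 (SE 0.22), and its lowest calf was again HAY calf 13.

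The 3 members CYP27A1, CYP7B1 and CYP4V2 were read beside the fibroblast markers, which were scored in each calf as the mean log2 deviation from the average calf. That score was 0.16, -1.0 and -1.59 in HAY and 1.62, 0.54, 0.51 and -0.25 in CON. From high to low, the calves stood in the order 8, 11, 12, 9, 14, 10 and 13 for both the score and CYP27A1. CYP7B1 and CYP4V2 differed from that order by the exchange of 1 pair of neighbours each, calves 11 and 12 and calves 8 and 11. Without CON calf 8 and HAY calf 13, the ends of that order, the differences of CYP27A1, CYP7B1 and CYP4V2 were -0.37, -0.49 and -0.52. Scores of other supporting tissue had similar orders. That of smooth muscle was 8, 11, 14, 12, 9, 10 and 13, and that of endothelium 8, 12, 9, 11, 14, 10 and 13. AKR1B1, an aldo-keto reductase, stood in the same order as the endothelium score, so such an order is not particular to these 3 members or to fibroblasts. The part of supporting tissue in the differences of CYP27A1, CYP7B1 and CYP4V2 was not tested.

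**Figure D3:**
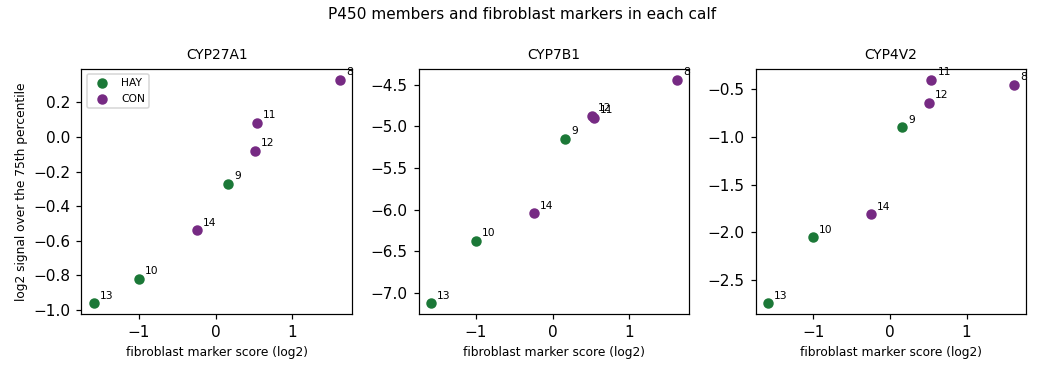
CYP27A1, CYP7B1 and CYP4V2 against the fibroblast marker score in the 7 calves. The horizontal axis is the mean log2 deviation of 9 fibroblast markers from the average calf, the vertical axis is log2 signal over the 75th percentile, and points are calves with their numbers; HAY calf 13 is at the lower left of each panel and CON calf 8 at the right.

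The other sterol enzymes had higher means in HAY. CYP46A1, the cholesterol hydroxylase best known from neurons, had values of -2.45, -1.61 and -1.27 in HAY and -3.62, -2.19, -2.59 and -2.57 in CON. CON calf 8 was the lowest and HAY calves 10 and 13 the highest, with HAY calf 9 below CON calf 11. This gave a log2 difference of 0.97 (SE 0.40; limma adjusted p = 0.346), and 0.42 without CON calf 8 and HAY calf 13. All 3 tested markers of nerve and glia were also higher in HAY, with a summed signal of 0.597 to 1.05 in HAY and 0.462 to 0.589 in CON, and their part was not tested. CYP39A1, another oxysterol hydroxylase, had a difference of 0.84 (SE 0.50), in which HAY calf 9 at -1.13 stood apart from HAY calves 10 and 13 at -2.88 and -3.24.

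Retinoic acid, which controls the keratinisation of squamous epithelia, is made by ALDH1A enzymes and removed by CYP26 enzymes. All 3 CYP26 members had the higher mean in HAY. CYP26A1, the main clearing enzyme, had 5.08, 4.97 and 5.19 in HAY and 4.88, 4.70, 4.96 and 4.68 in CON. The groups did not overlap, although HAY calf 10 and CON calf 12 nearly met, and the log2 difference was 0.28 (SE 0.14; limma adjusted p = 0.406), or 0.16 with quantile normalization. CYP26C1 (0.22, SE 0.13) and CYP26B1 (0.19, SE 0.14) had smaller ones, and that of CYP26B1 was -0.04 with normexp.

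Both ALDH1A members, on the side of synthesis, had the higher mean in HAY too. ALDH1A2 had -1.42, -1.40 and -1.40 in HAY and -2.39, -1.47, -1.73 and -1.63 in CON. The 3 HAY calves were nearly equal and above all CON calves, of which calf 8 was far the lowest; the difference was 0.40 (SE 0.23; limma adjusted p = 0.470), and 0.20 without that calf. ALDH1A1 ran from 5.89 to 6.66 in HAY and from 5.65 to 6.02 in CON (0.45, SE 0.20).

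Among other genes of retinoid handling, 20 of 22 on the array were tested, 14 with a higher and 6 with a lower mean in HAY, and their median difference was 0.15 on the log2 scale. At an unadjusted p under 0.05, 1 was higher and 1 lower, so 2 of 20, beside 13.9% of all genes. BCO1, which cleaves dietary carotene to retinal, differed by 0.63 (SE 0.15; limma adjusted p = 0.212) with no overlap, and by 0.15 with normexp. RARRES1, a gene induced by retinoids, differed by -1.59 (SE 0.47; limma adjusted p = 0.259). RDH16 was well above background on no array.

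Of the enzymes of steroid hormone synthesis, CYP21A2 (0.36, SE 0.33) and CYP11B1 (0.28, SE 0.24) were tested, both with overlapping groups. CYP11A1, CYP17A1 and CYP19A1, which start the pathway and make androgens and estrogens, were not well above background on any array. CYP20A1, a P450 without a settled substrate, had a difference of -0.40 (SE 0.28), which was -0.08 without HAY calf 13.

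P450 enzymes of the microsomes take electrons from POR or cytochrome b5, and those of mitochondria from FDXR by way of ferredoxin. All 12 genes of this group on the array were tested, with 6 means higher and 6 lower in HAY, and their median log2 difference was 0.03. POR differed by 0.11 (SE 0.22). At an unadjusted p under 0.05 there were 2 of 12, both higher in HAY, beside 6.78% of all genes: FDXR by 0.65 (SE 0.18; limma adjusted p = 0.254), without overlap, and CYB5R1, a cytochrome b5 reductase, by 0.66 (SE 0.22; limma adjusted p = 0.288).

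Of the flavin monooxygenases, FMO4 and FMO5 were tested of 5. FMO4 had values of -3.62, -3.58 and -3.70 in HAY and -4.60, -3.97, -3.98 and -4.25 in CON. The HAY calves lay close together and above every CON calf, and CON calf 8 was the lowest. The log2 difference was 0.56 (SE 0.18; limma adjusted p = 0.275), and 0.28 with normexp. FMO5, which acts on ketones more than on nitrogen, ran from 3.05 to 3.58 in HAY and from 1.83 to 3.20 in CON (0.69, SE 0.36), with CON calves 14 and 8 the lowest.

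The aldehyde dehydrogenases were the largest family, with 15 of 17 probes tested, 9 means higher and 6 lower in HAY, and their median log2 difference was 0.09. ALDH2 is the mitochondrial enzyme that oxidises acetaldehyde. Its values were 0.61, 0.96 and 0.46 in HAY and 0.12, 0.47, 0.33 and -0.28 in CON. HAY calf 13 lay just below CON calf 11, and CON calf 14 was the lowest; the difference was 0.52 (SE 0.22; limma adjusted p = 0.355), and 0.37 without CON calf 14.

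ALDH4A1, a mitochondrial enzyme of proline breakdown, had 4.09, 3.91 and 3.81 in HAY and 3.45, 3.74, 3.72 and 3.60 in CON. The groups did not overlap, and the log2 difference was 0.31 (SE 0.14; limma adjusted p = 0.371). The enzyme of the opposite direction, ALDH18A1, which makes proline, had a difference of 0.04 (SE 0.22).

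ALDH1L2, the mitochondrial formyltetrahydrofolate dehydrogenase of folate metabolism, had values far apart between calves. Its values were -6.79, -9.47 and -9.36 in HAY and -4.32, -6.82, -7.05 and -7.09 in CON. CON calf 8 stood far above the rest, HAY calf 9 lay just above the other CON calves, and HAY calves 10 and 13 were not well above background. Its log2 difference was -2.22 (SE 0.89; limma adjusted p = 0.335), and it was -0.57 with normexp and -1.14 without CON calf 8 and HAY calf 13. CON calf 8 was also the highest for the fibroblast and smooth muscle markers, whose part was not tested. Its cytosolic partner ALDH1L1 had a difference of 0.11 (SE 0.14).

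The remaining aldehyde dehydrogenases differed by little. ALDH9A1 (0.14), ALDH16A1 (0.13) and ALDH8A1 (0.09) had higher means in HAY, and ALDH7A1 (-0.02), ALDH3A2 (-0.08), ALDH3B1 (-0.20), ALDH6A1 (-0.28) and ALDH5A1 (-0.35) lower ones. All of these groups overlapped.

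None of the 9 tested aldo-keto reductases reached an unadjusted p of 0.05, with 5 means higher and 4 lower and a median log2 difference of 0.01. With normexp it was 4 and 5, and likewise without HAY calf 10, HAY calf 13, CON calf 8 or CON calf 11. With median centring or quantile normalization, and without CON calf 12, it was 6 and 3. AKR1B10, a reductase of retinal and lipid aldehydes, had -6.87, -7.28 and -4.59 in HAY and -6.25, -4.79, -4.31 and -4.92 in CON. HAY calves 9 and 10 were the lowest, HAY calf 13 was among the highest, and the difference was -1.18 (SE 0.71; limma adjusted p = 0.487), or -0.35 with normexp. The array of HAY calf 10 did not show it well above background. Leaving out HAY calf 10 gave -0.67, and leaving out HAY calf 13 gave -2.01.

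The AKR1C enzymes and 20ALPHA-HSD reduce steroids and prostaglandins. AKR1C4 ran from 5.39 to 5.49 in HAY and from 4.94 to 5.48 in CON (log2 difference 0.29, SE 0.16), 20ALPHA-HSD from 4.26 to 4.48 and from 3.88 to 4.40 (0.19, SE 0.17), and AKR1C3 from -6.35 to -5.38 and from -6.04 to -5.36 (0.01, SE 0.27). AKR1A1 (0.35, SE 0.28) and AKR7A3 (0.30, SE 0.46), reductases of many aldehydes, had higher means in HAY. AKR1B1 (-0.35, SE 0.18), the aldose reductase, AKR1E2 (-0.07, SE 0.18) and AKR7A2 (-0.06, SE 0.31) had lower ones.

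All 5 tested UDP-glycosyltransferases had the higher mean in HAY, and did so with median centring, quantile normalization, normexp and the deposited values. Their median log2 difference was 0.69. UGT1A1, the enzyme that conjugates bilirubin, had values of 6.74, 6.64 and 6.68 in HAY and 6.11, 6.52, 6.40 and 6.25 in CON. The groups did not overlap, and the HAY calves spanned less than the CON calves. The means were 6.69 ± 0.05 (SD, n = 3) and 6.32 ± 0.18 (SD, n = 4), a difference of 0.37 (SE 0.14; limma adjusted p = 0.326).

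UGT1A6, which conjugates simple phenols, had 2.67, 2.86 and 3.00 in HAY and 1.84, 2.39, 2.84 and 2.24 in CON. CON calf 12 lay within the HAY range and the other CON calves below it; the log2 difference was 0.52 (SE 0.24).

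The UGT2 enzymes conjugate steroids, bile acids and odorants. UGT2B10, known for nicotine and amines, had 1.42, 1.39 and 1.90 in HAY and 0.31, 0.57, 1.63 and -0.65 in CON, and again CON calf 12 reached the HAY calves. On the log2 scale HAY and CON differed by 1.10 (SE 0.48; limma adjusted p = 0.360), and 0.73 without CON calf 14. UGT2A3 (0.83, SE 0.43) and UGT2A1 (0.69, SE 0.35) had CON calf 14 as the lowest as well. The UGT2 probes tested and that of SULT1B1 lie together on chromosome 6, between 86179530 and 86942349.

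Of the 10 sulfotransferase probes, 4 were tested. SULT1B1, which sulfates thyroid hormones and small phenols, had values of 0.37, 0.33 and 0.61 in HAY and -0.40, 0.26, 0.19 and -0.63 in CON. The groups did not overlap, by a narrow gap to CON calf 11, and CON calves 8 and 14 were the lowest. The log2 difference was 0.58 (SE 0.25; limma adjusted p = 0.356), and 0.42 without CON calf 14.

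SULT1C2 had -7.01, -6.29 and -6.73 in HAY and -7.74, -7.48, -6.81 and -8.21 in CON, a log2 difference of 0.88 (SE 0.34; limma adjusted p = 0.321). CON calf 12 lay above HAY calf 9. The probe was well above background on all HAY arrays and on 1 CON array, and the difference was 0.02 with normexp. SULT1A1, the main phenol sulfotransferase, differed by 0.20 (SE 0.14), and SULT2B1, the cholesterol sulfotransferase of cornifying epithelia, by -0.09 (SE 0.39), with CON calf 14 at 3.82 and HAY calf 13 at 3.54 the highest.

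**Figure D4:**
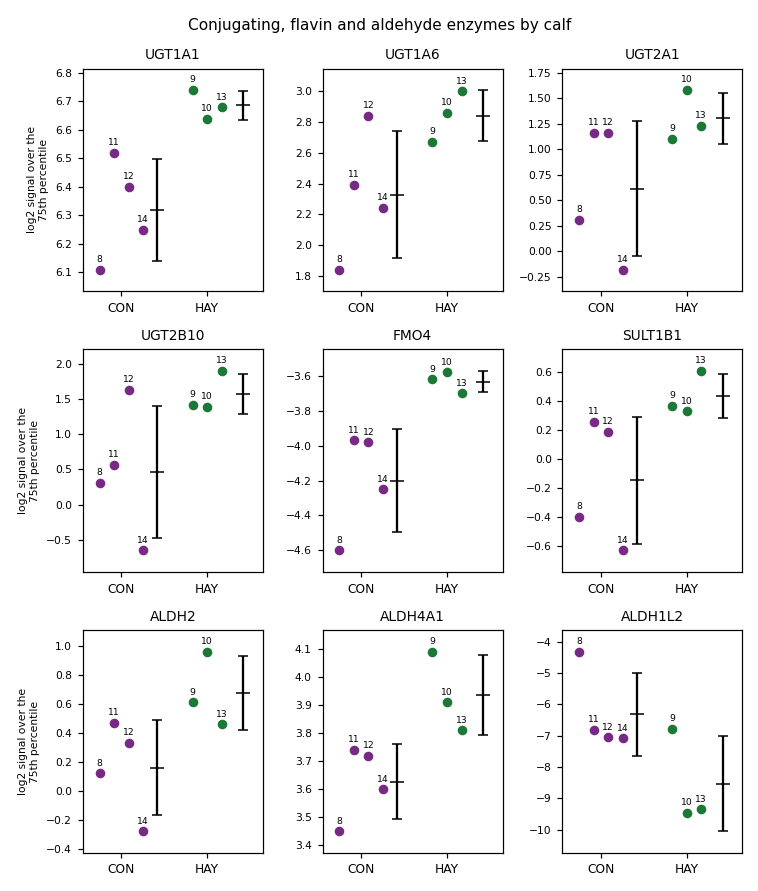
Conjugating enzymes, FMO4 and aldehyde dehydrogenases in each calf. The vertical axis is log2 signal over the 75th percentile of the array, with a scale of its own in each panel, points are calves with their numbers, and bars are the mean ± SD (n = 4 CON, n = 3 HAY); the groups do not overlap for UGT1A1, FMO4, SULT1B1 and ALDH4A1, and CON calf 8 stands apart at -4.32 for ALDH1L2.

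The genes that supply these conjugations and reverse them were all tested, 13 of 13 on the array, with 9 means higher and 4 lower in HAY, and their median log2 difference was 0.07. At an unadjusted p under 0.05, 3 of 13 were higher and 1 lower, beside 6.78% and 7.17% of all genes. SLC35D1, the carrier of UDP-glucuronic acid into the endoplasmic reticulum, differed by 1.16 (SE 0.45; limma adjusted p = 0.326). UGDH, which makes UDP-glucuronic acid, differed by 0.17 (SE 0.19).

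On the side of sulfate, PAPSS2, which makes the sulfate donor, differed by 0.67 (SE 0.31; limma adjusted p = 0.384), and PAPSS1, which does the same and was added after its values were seen, by -0.61 (SE 0.27; limma adjusted p = 0.369). BPNT1 and IMPAD1, which clear the spent donor, differed by 0.45 (SE 0.16; limma adjusted p = 0.303), without overlap, and 0.70 (SE 0.28; limma adjusted p = 0.336). STS, the sulfatase that removes sulfate from steroids, differed by -0.96 (SE 0.41; limma adjusted p = 0.355), and by -0.30 with normexp.

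Other enzymes that oxidise, reduce or hydrolyse were tested for 20 of 23 genes, 11 with a higher and 9 with a lower mean in HAY, and their median log2 difference was 0.06. At an unadjusted p under 0.05, 2 were higher and 1 lower, beside 6.78% and 7.17% of all genes. Besides NQO1, ADH4, an alcohol dehydrogenase, was higher by 1.04 (SE 0.40; limma adjusted p = 0.324), or 0.41 with normexp, and XDH, the xanthine oxidoreductase of purine breakdown, lower by a difference of -0.85 (SE 0.30; limma adjusted p = 0.300). ADH1C, DHRS4 and PON1 were well above background on no array.

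Of other conjugating transferases, 8 of 9 on the array were tested, 3 with a higher and 5 with a lower mean, and a median log2 difference of -0.24. At an unadjusted p under 0.05, 1 was higher and 1 lower, beside 13.9% of all genes in either direction. INMT, a methyltransferase of indole amines, differed by 1.29 (SE 0.42, limma adjusted p = 0.279), but by 0.16 with normexp. It was well above background on all HAY arrays and on 1 CON array. INMT thus passed the detection filter through the group where it was higher, and the size of its difference is uncertain. ASMT, the enzyme that completes melatonin, differed by -0.95 (SE 0.31; limma adjusted p = 0.283). GLYAT was not well above background on any array.

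The 24 members below the detection filter included 20 that were not well above background on any array. Among the P450 enzymes these were CYP2C89, CYP2E1, the ethanol-inducible form, the steroid enzymes named above, and CYP7A1 and CYP8B1, which start and steer the main hepatic route of bile acid synthesis. The others included UGT2B15, UGT2B4, UGT8, ALDH1B1, ALDH3A1, AKR1D1, FMO1, SULT1C3, SULT1C4, SULT2A1, SULT4A1 and SULT6B1.

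Besides the probe named CYP1A2, 3 members were detected on 1 or 2 arrays. CYP27B1, which activates vitamin D, was well above background on 2 HAY arrays and no CON array. SULT1E1, the estrogen sulfotransferase, and FMO2 were each well above background on 1 HAY array and no CON array. No fold is given for these.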

How the data were processed

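RNA was hybridised to 1-colour Agilent arrays, 1 per calf, from 500 ng of total RNA, and scanned with Agilent Feature Extraction 9.5, per the submitters' processing notes. The deposited scanner files give linear intensity (processed signal, already background-subtracted), and the authors' deposited log2 table equals the log2 intensity minus the 75th percentile of each array, with column medians of -3.20 to -3.08. From the scanner files, control spots and outlier spots were left out, spots of a probe averaged, and the 75th percentile subtracted. The 12604 probes that the scanner called well above background on 3 or more of the 7 arrays were kept, with the brightest probe per gene name, and 12570 genes were fitted with limma 3.58.1 (R 4.3.3; lmFit, eBayes) on group alone, with Benjamini-Hochberg adjustment over all of them; the fit was tested on simulated data. Labels name calves, so the spread is between animals.

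Members given with per-calf values are those at an unadjusted p under 0.05 or without overlap, the 5 largest log2 differences each way and the 5 largest SDs; a few further values were chosen after they were seen. Of the pathway lists, genes at that p or without overlap, and POR, AHR, UGDH and PAPSS2, are given. The members and lists were chosen with earlier results of these data known. Alternatives were other background correction (normexp, offset 50), scaling, filters, probe choice, slide column as a block, the deposited table, and leaving out calves. Promoters, proteins and exon positions were not analysed here. A few items are not reported here.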

Additional observations from a re-analysis of the deposited data

Results flagged for a closer look

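Dixon's test for 4 values was run in CON, the group with enough calves for it. Of the 64 tested members, 6 (9.38%) had 1 calf whose gap to the next was larger than Dixon's limit. For independent normal values that limit flags about 1 in 20. The share over all genes was not taken, and the members share the same calves, so no excess is read from 9.38%. Values are log2 signal over the 75th percentile. CON calf 14 stood below the others for 3 members: ALDH6A1 was -4.72 in that calf and -3.81 to -3.78 in the rest, CYP39A1 was -3.86 and -3.09 to -3.01, and CYP2C87 was 2.04 and 3.00 to 3.04. CON calf 8 stood above the others for ALDH1L2, at -4.32 where the rest were -7.09 to -6.82. CON calf 11 stood above them for ALDH8A1, at -0.65 where the rest were -1.11 to -1.07. CON calf 12 stood above them for AKR1C3, at -5.36 where the rest were -6.04 to -5.95. The HAY group, with 3 calves, was not tested in this way.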

How the results depend on the processing

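Under 16 alternative settings no detoxifying enzyme passed the adjusted threshold, and none of the 20 named members turned its direction in any of 316 values. Those 20 were chosen in the same data, many for a low p or a large difference, and some settings were nearly equal to the main one. Their steady direction therefore says little about the other members. Of those others, CYP2R1, CYP26B1, CYP4A22 and SULT2B1 were among the members that turned in some setting. The median log2 difference of the tested members ran from 0.13 (normexp) to 0.27 (median centring). Median centring gave 15 members higher at an unadjusted p under 0.05, 11 without overlap and 4 past 2-fold. Without a filter on dim probes 4 members were past 2-fold, and with detection required on all arrays 1 was lower. Quantile normalization called 4 genes in all. The slide column as a block, which takes out CON calf 8, alone in its column, called 2 genes and gave 5 members lower and 4 past 2-fold. Without CON calf 8 and HAY calf 13 there were 5 genes called and 19 members without overlap. There, 3 members were higher and 1 lower, beside 314 and 434 of all genes. Leaving out each calf in turn gave 1 to 21 genes called (21 without CON calf 14). It gave 3 to 11 members higher and 0 to 7 lower, beside 377 to 1147 and 495 to 1195 of all genes. It also gave 8 to 25 members without overlap and 1 to 6 past 2-fold. With calves left out, these last counts were not taken over all genes. No paired analysis was possible because the groups share no calf number; the slide column matches arrays by position, not calves by a label. Dim probes limit the values of ALDH1L2, SULT1C2, AKR1B10, CYP4B1 and CYP2S1, which were not well above background on every array.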
